A study of Mus musculus with 4 samples.

Results

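The genes Mettl21a, Mettl21c and Mettl21e and the genes Smyd1 to Smyd5 encode enzymes that add methyl groups to lysine residues of proteins, and several of them are known for their part in muscle. The 8 genes were taken by name, 1 row each, from the 32868 gene names of the deposited expression files. Mettl21e was chosen by its level, much higher in the Nf1-KO libraries, so its values are a description with no test. The other 7 were taken as relatives of the same 2 families.

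Total RNA was isolated from the tibialis anterior, a shin muscle made mostly of fast fibres, of C57BL/6 mice at postnatal day 21. The 2 Het libraries came from animals labelled Nf1flox/+/Myf5+, with 1 floxed Nf1 allele, and the 2 Nf1-KO libraries from animals labelled Nf1flox/flox/Myf5+, with both alleles floxed. Both groups carry the Myf5+ label; in this mouse model Cre recombinase is made from the Myf5 locus, which is active in muscle precursors. Cells outside the Myf5 lineage keep their Nf1 alleles, and the Het controls carry a floxed allele as well, so neither group is wild type. Nf1 encodes neurofibromin, an inhibitor of Ras signalling, and the title of the series names postnatal muscle growth and metabolic balance as the questions. The labels do not say whether the 2 libraries of a group came from separate animals, so the p-values measure the spread between libraries, which may be technical.

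Protein lysine methylation is carried out by 2 structurally unrelated kinds of enzyme, and both take the methyl group from S-adenosylmethionine. METTL21 proteins belong to the seven-beta-strand methyltransferases and act mostly on chaperones and other non-histone proteins. METTL21A methylates Hsp70 chaperones, and METTL21C and METTL21E are found mainly in muscle, where the AAA ATPase p97 (gene Vcp) and alanyl-tRNA synthetase are among the reported substrates or partners. SMYD proteins carry a SET domain that is split by a MYND zinc finger. SMYD1 is restricted to heart and skeletal muscle and is needed to assemble myosin into sarcomeres. SMYD2 methylates Hsp90 and helps to hold titin in place, SMYD3 acts on histones and on the kinase MAP3K2, SMYD5 acts on histone H4, and SMYD4 is the least studied.

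Levels are in RPKM, reads scaled to gene length and library size, as deposited. Levels of different genes can be set side by side only as far as the gene lengths used, which are not given, are right. Differences are log2 fold changes of Nf1-KO over Het from limma, computed on log2(scaled RPKM + 1). Scaled means divided by a factor per library, and adding 1 understates the change of low genes. A gene was tested if it had at least 0.5 RPKM in at least 2 libraries, and called if its limma p, adjusted by Benjamini-Hochberg over all 10690 tested genes, was under 0.05. An exact permutation test of 2 libraries against 2 can reach no p under 0.333, and the calls therefore lean on limma's pooling of variance over genes.

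Nf1 itself stood at 1.09 and 1.01 RPKM in Het and at 0.89 and 0.85 RPKM in Nf1-KO, and the groups do not overlap. Its log2 fold change was -0.18 ± 0.057 (SE; limma adjusted p 0.041), and the call was lost when any 1 library was left out (adjusted p 0.062 to 0.18). It was -0.33 with 0.1 added in place of 1, and the authors' deposited table gave Nf1 -0.38 (adjusted p 0.0026). This gene-level value also counts exons outside the floxed part and cells outside the Myf5 lineage, so it is a weak check of the labels. The depth of each library is not given in the files; the summed RPKM was 532315 and 537475 in Het and 545652 and 547144 in Nf1-KO. In the authors' deposited table the mean normalized count over the libraries ran from 254 for Smyd3 to 20604 for Smyd1 among the members with a row there.

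Of the 7 members that could be tested, 6 were taken by family name rather than for their own change, although with earlier results of these data known. Mettl21c, Smyd1 and Smyd2 were lower in Nf1-KO and passed the threshold, while Smyd3, Smyd4 and Smyd5 did not pass it. So 3 of 6 were called lower, where 25.4% of all tested genes were, and 0 of 6 were called higher by limma, where 24.9% were. At an unadjusted limma p under 0.05, 1 of the 6 (Smyd4) was higher and 3 were lower. The share of all tested genes at that threshold was not computed, so these 2 counts cannot be judged against it. In either direction 3 of 6 were called, and so were 50.3% of all tested genes, so being called does not set the members apart. With values as deposited, 2 of the 6 were called lower and 1 higher, where 17.6% and 35.2% of tested genes were. Their median log2 fold change was -0.14, beside 0.0004 for all tested genes. The authors' deposited table also called 3 of the 6 lower and 0 higher at an adjusted p under 0.05, where it called 16.6% of its genes lower, 15.0% higher and 31.6% in either direction. In deposited RPKM, 3 of the 6 had both Nf1-KO libraries below both Het libraries and 1 had both above, where 27.4% and 49.8% of all tested genes did (77.3% together). Mettl21a was not tested.

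**Figure D1:**
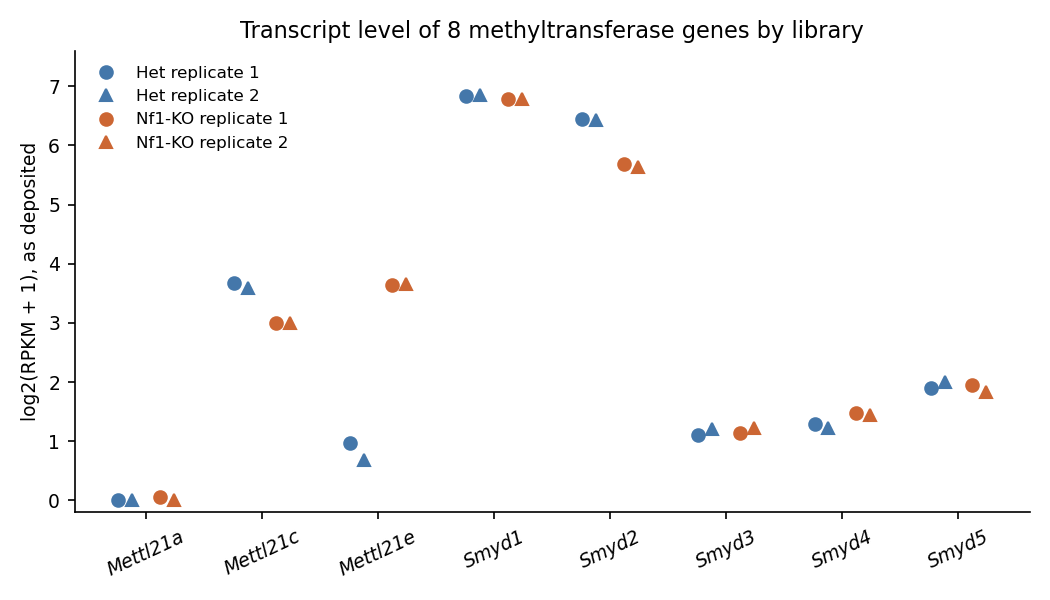
Level of each of the 8 genes in each of the 4 libraries, as log2(RPKM + 1) of the deposited values; blue marks Het, orange Nf1-KO, circles replicate 1 and triangles replicate 2. Smyd1 and Smyd2 stood highest in every library, Mettl21a was at or near 0, and Mettl21e moved from below Smyd3 in Het to above Mettl21c in Nf1-KO.

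The levels spanned a wide range. In Het the order was Smyd1, Smyd2, Mettl21c, Smyd5, Smyd4, Smyd3, Mettl21e and Mettl21a, with means of 114, 85.7, 11.4, 2.88, 1.40, 1.24, 0.780 and 0.00500 RPKM. The lower Smyd4 library (1.34) and the higher Smyd3 library (1.32) almost touch, so the order of these 2 in Het is not beyond the spread. In Nf1-KO the order was Smyd1, Smyd2, Mettl21e, Mettl21c, Smyd5, Smyd4, Smyd3 and Mettl21a. Smyd1 was higher than 96.8% of all tested genes in Het and 96.3% in Nf1-KO. Mettl21e went from above 11.5% of tested genes in Het to above 74.4% in Nf1-KO.

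Mettl21e, a methyltransferase found mainly in skeletal muscle, lies on chromosome 1 from 44204070 to 44218961 on the minus strand (GRCm38, GENCODE M21). It stood at 0.95 and 0.61 RPKM in Het and at 11.55 and 11.66 RPKM in Nf1-KO. The Nf1-KO libraries agreed closely with each other, and both stood far above both Het libraries. The ratio of the mean RPKM was 14.9, and the log2 fold change on the scaled scale with 1 added was 2.77 ± 0.092 (SE). That was the 5th highest log2 fold change of the 10690 tested genes. Because the Het level is under 1 RPKM, the size depends on the value added before taking logs: it was 3.67 with 0.1 added, and it was 3.80 in the authors' deposited table. No p is given for these values, since the gene was chosen for them.

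Mettl21c, the closest relative of Mettl21e among the members, moved the other way. It lies on the same strand of chromosome 1, from 44009408 to 44020034, and 184035 bases separate the 2 genes. Mettl21c was 11.76 and 11.06 RPKM in Het and 7.03 and 6.98 RPKM in Nf1-KO. The groups do not overlap, and the log2 fold change was -0.72 ± 0.042 (SE; limma adjusted p 3.8e-05). It fell in every setting tried, with a log2 fold change between -0.79 and -0.63. The log2 fold change of Mettl21c in the authors' deposited table was -0.81 (adjusted p 7.6e-09).

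The files do not state how reads that match more than 1 gene were treated, so the coding sequences of this pair were compared in the GENCODE M21 transcripts. Aligned over 710 bases, the coding sequences of Mettl21c (747 bases) and Mettl21e (735 bases) were identical at 62.4% of positions. Their longest shared run is 11 bases, and it is printed here with 12 bases on each side, because it is the longest coding stretch that does not tell apart the 2 genes with opposite changes. Capitals mark the shared run, which starts at coding base 532 of Mettl21c and coding base 511 of Mettl21e.
Mettl21c: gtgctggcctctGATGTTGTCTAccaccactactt
Mettl21e: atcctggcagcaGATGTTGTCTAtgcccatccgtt
Among all 28 pairs of the 8 members, the longest shared coding run was 9 to 13 bases. No exon of Mettl21c or Mettl21e overlaps an exon of another annotated gene.

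Mettl21a, the Hsp70 lysine methyltransferase, was listed at 0 and 0.01 RPKM in Het and at 0.04 and 0.01 RPKM in Nf1-KO. It was under the filter in every library and was not tested. Since 44.7% of all rows were listed at 0 in all 4 libraries, among them the broadly used histone methyltransferase gene Kmt2a, this value does not show that the gene is silent. It lies on chromosome 1 from 64606473 to 64617242.

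The make-up of the Mettl21 sum differed between Het and Nf1-KO. The summed RPKM of the 3 genes was 12.7 and 11.7 in Het, and 18.6 in both Nf1-KO libraries. Mettl21c made up 92.5% and 94.7% of that sum in the Het libraries and 37.8% and 37.4% in the Nf1-KO libraries. Mettl21e made up 7.47% and 5.22% in Het and 62.0% and 62.5% in Nf1-KO. Within a library these shares do not depend on scaling between libraries, but they do depend on the length used for each gene. Mean normalized count (authors' deposited table) per RPKM was 52.0 for Mettl21c and 146 for Mettl21e. The shares rest on the gene that was chosen for its rise and are given with no test.

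**Figure D2:**
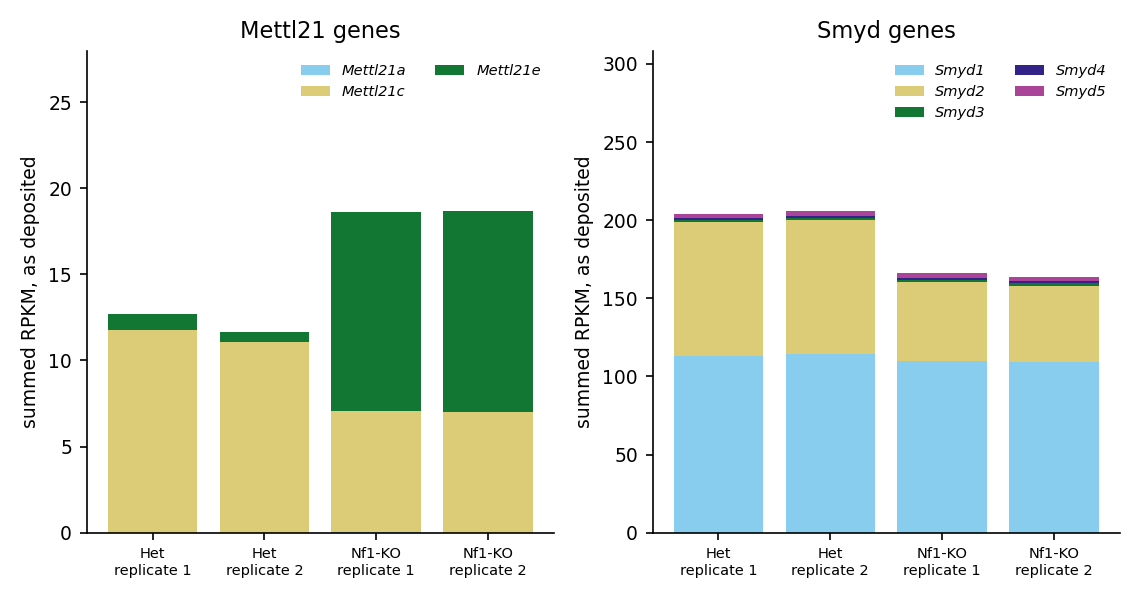
Summed deposited RPKM of the 3 Mettl21 genes (left) and the 5 Smyd genes (right) in each library, stacked by gene. Mettl21e makes up most of the Mettl21 sum only in the 2 Nf1-KO libraries, and the lower Smyd sum there lies mostly in Smyd2.

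Smyd2, which methylates Hsp90, was the member with the largest fall. It lies on chromosome 1 from 189880492 to 189922363 on the minus strand. It was 85.93 and 85.53 RPKM in Het and 50.68 and 48.98 RPKM in Nf1-KO. The groups are far apart next to their spread, with SDs of 0.28 and 1.2 RPKM. The log2 fold change was -0.86 ± 0.026 (SE; limma adjusted p 2.6e-06), larger in size than that of 97.2% of tested genes. It stayed between -0.88 and -0.77 over 14 other settings and passed in all 14. In the authors' deposited table Smyd2 was at -0.89 (adjusted p 5.0e-124). An exon of Smyd2 overlaps one of the opposite-strand gene Gm37422, and no source says if reads were counted by strand.

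Smyd1, the muscle-restricted member needed for myosin assembly, was the most abundant and changed little. It lies on chromosome 6 from 71213940 to 71322233 on the minus strand. It was 112.79 and 114.41 RPKM in Het and 109.61 and 109.23 RPKM in Nf1-KO, and the groups do not overlap. The log2 fold change was -0.15 ± 0.021 (SE; limma adjusted p 0.0016). With values as deposited and not scaled it was -0.054, and the call was lost (limma adjusted p 0.063). In the authors' deposited table Smyd1 was at -0.16 (adjusted p 4.2e-10).

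The ratio of Smyd1 to Smyd2, which needs no scaling between libraries, was 1.31 and 1.34 in Het and 2.16 and 2.23 in Nf1-KO. The summed RPKM of the 5 Smyd genes was 204 and 206 in Het and 166 and 164 in Nf1-KO. Smyd1 made up 55.3% and 55.6% of it in Het and 66.0% and 66.7% in Nf1-KO. Smyd3, Smyd4 and Smyd5 together were 2.63% to 3.55% of it in any library.

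The 250 bases before the RefSeq start (GRCm38.p6) are shown for Smyd1 and Smyd2, the 2 most abundant members, which differed in the size of their fall. Capitals mark matches, on either strand, to the letters CANNTG (an E-box), GGGCGG (a GC box), CCAAT and TATAA.
Smyd1 (chr6:71262282-71262531, minus strand): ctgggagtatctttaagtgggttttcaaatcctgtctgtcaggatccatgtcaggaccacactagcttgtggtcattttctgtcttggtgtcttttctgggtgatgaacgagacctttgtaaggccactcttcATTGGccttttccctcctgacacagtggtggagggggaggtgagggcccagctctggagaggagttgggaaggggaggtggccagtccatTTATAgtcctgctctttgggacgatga
Smyd2 (chr1:189922292-189922541, minus strand): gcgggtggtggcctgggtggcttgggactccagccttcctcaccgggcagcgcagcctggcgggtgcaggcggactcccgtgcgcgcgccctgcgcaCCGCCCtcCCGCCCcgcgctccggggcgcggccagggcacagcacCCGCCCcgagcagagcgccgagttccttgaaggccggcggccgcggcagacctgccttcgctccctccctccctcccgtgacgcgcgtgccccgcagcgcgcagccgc
The Smyd1 window holds 2 CpG dinucleotides and 51.6% GC, with a TATAA match starting 27 bases and a CCAAT match starting 117 bases before the start, both on the opposite strand. The Smyd2 window holds 34 CpG and 78.8% GC, with 3 GC boxes and neither TATAA nor CCAAT. Of 32851 RefSeq promoter windows of the same length, 22.8% held TATAA, 33.8% CCAAT, 32.7% a GC box and 66.2% an E-box, and the median was 6 CpG. Fewer CpG than in Smyd2 were held by 96.5% of windows, and fewer than in Smyd1 by 18.8%. The RefSeq starts of Smyd1 and Smyd2 both lie inside the GENCODE gene body. The Smyd1 window lies wholly, and the Smyd2 window partly, within that body. Neither window holds the letters of an E-box. Promoter windows were matched for 5 of the 8 members, also Mettl21a, Smyd4 and Smyd5, and a match of letters shows no binding.

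The remaining 3 Smyd genes were low. Smyd5 was 2.75 and 3.02 RPKM in Het and 2.89 and 2.58 RPKM in Nf1-KO, so the groups overlap. Its log2 fold change was -0.13 ± 0.066 (SE; limma adjusted p 0.16). Smyd3, a histone and MAP3K2 methyltransferase, was 1.16 and 1.32 RPKM in Het and 1.21 and 1.33 RPKM in Nf1-KO, again overlapping. Its log2 fold change was -0.03 ± 0.065 (SE; limma adjusted p 0.70). Smyd4 was 1.45 and 1.34 RPKM in Het and 1.80 and 1.73 RPKM in Nf1-KO, which do not overlap. Its log2 fold change was 0.15 ± 0.057 (SE), and it missed the threshold narrowly (limma adjusted p 0.069). With values as deposited Smyd3 turned to 0.020, and Smyd4 passed (0.21, limma adjusted p 0.023). In the authors' deposited table none of Smyd3, Smyd4 and Smyd5 passed, with adjusted p of 0.80, 0.30 and 0.42. Smyd3 lies on chromosome 1 (178951960 to 179518041), Smyd4 on chromosome 11 (75348433 to 75405705) and Smyd5 on chromosome 6 (85431989 to 85446435).

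**Figure D3:**
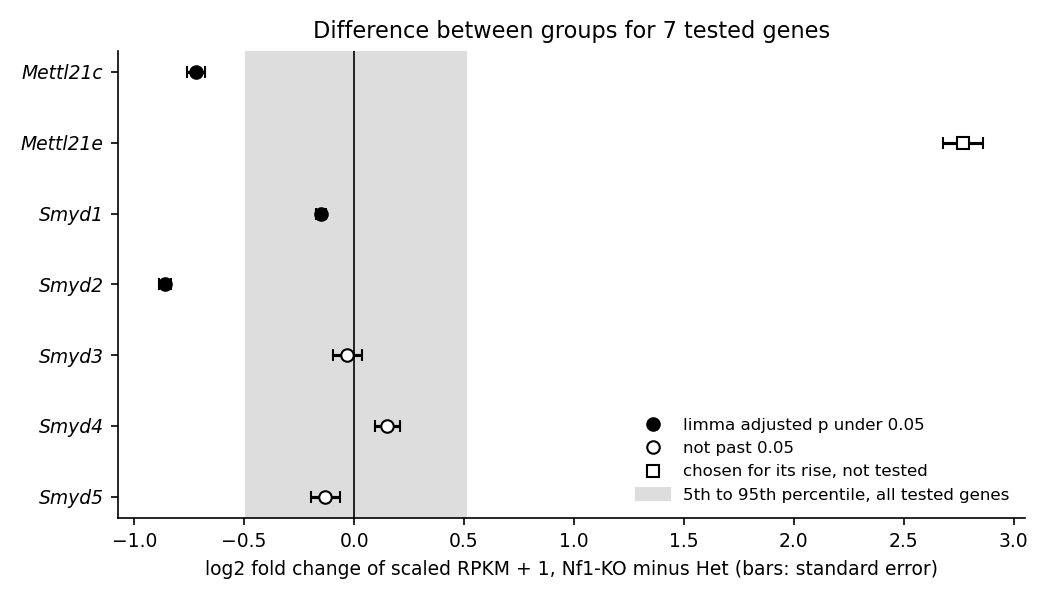
Log2 fold change of Nf1-KO over Het for the 7 tested genes with its standard error; filled circles passed the limma threshold, open circles did not, and the open square is Mettl21e, which was chosen for its rise. The grey band runs from the 5th to the 95th percentile of all tested genes, -0.49 to 0.51: Mettl21c, Mettl21e and Smyd2 lie outside it.

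The genes that lie around Mettl21c and Mettl21e were read to show how far the opposite changes extend along the chromosome. Of the 3 nearest genes with a row on each side of either gene, 7 could be tested. Ercc5, a DNA repair endonuclease whose end lies 22810 bases from Mettl21e, rose by 0.35 (limma adjusted p 0.0013), from 3.39 and 3.45 to 4.82 and 5.05 RPKM. Col3a1, a fibrillar collagen that lies 1092577 bases beyond Mettl21e, rose by 0.41 (limma adjusted p 9.1e-05). Kdelc1 and Bivm, between the 2 methyltransferase genes, and Gulp1 did not pass, with log2 fold changes of 0.09, -0.13 and 0.19. Gulp1 passed in 5 of 13 other settings, among them values as deposited (limma adjusted p 0.028) and without Het replicate 1 (0.039). Tpp2, a peptidase gene whose end lies 6408 bases from Mettl21c, had a log2 fold change of 0.11 (limma adjusted p 0.046), and Uxs1 one of -0.27 (0.042). The calls of Tpp2 and Uxs1 were not stable: Tpp2 lost its call without any 1 of the 4 libraries (adjusted p 0.093 to 0.17). Uxs1 lost it without Het replicate 1, Het replicate 2 or Nf1-KO replicate 2 (0.12 to 0.19). Exons of Col3a1 and Kdelc1 overlap those of Gm47302 and Gm29247 on the same strand. The other 3 neighbours, 1500015O10Rik, Tex30 and 4930521E06Rik, were under the filter.

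**Figure D4:**
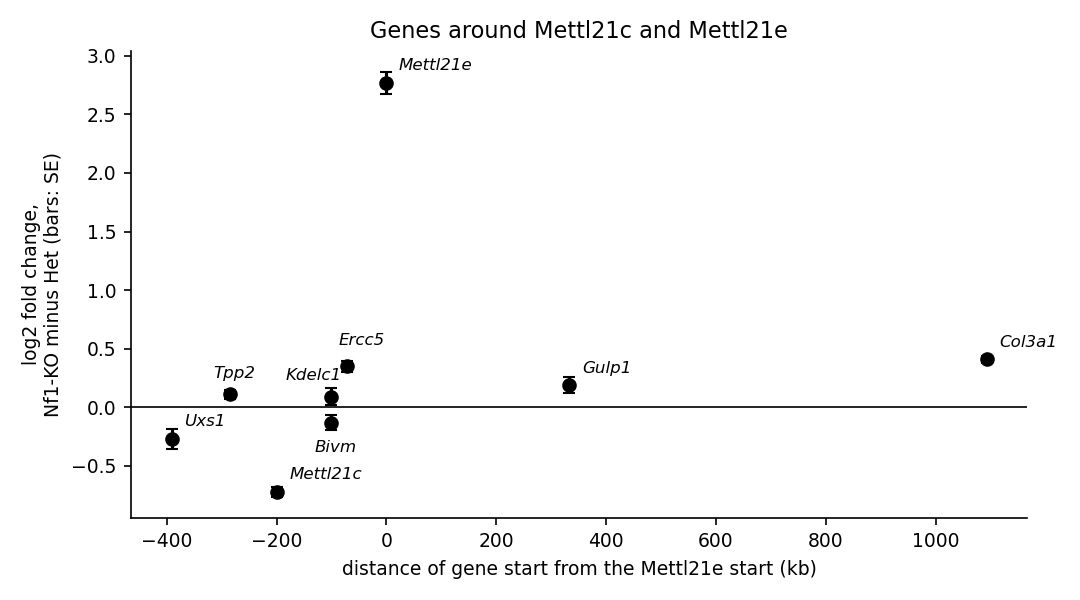
Log2 fold change with standard error of the tested genes around Mettl21c and Mettl21e, by the distance in kb of each gene's start from the Mettl21e start. Mettl21e at 2.77 and Mettl21c at -0.72 stand apart from the genes between and beside them, which lie between -0.27 and 0.41.

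Genes with the most similar pattern were sought for Mettl21e, Mettl21c and Smyd1 among 9064 other tested genes with a mean of at least 1 RPKM. Likeness was the Euclidean distance over the 4 libraries between log2(scaled RPKM + 1) values, each taken relative to the gene's own Het mean. Nearest to Mettl21e were Acp5, Ctsk and Mmp13, at distances of 0.50, 0.55 and 0.63. Acp5 encodes tartrate-resistant acid phosphatase, Ctsk the protease cathepsin K and Mmp13 a collagenase. Ctsk was 1.02 and 0.91 RPKM in Het and 9.54 and 10.04 RPKM in Nf1-KO, close to the levels of Mettl21e. An exon of Acp5 overlaps one of the opposite-strand gene 6530413G14Rik, and one of Gphn overlaps Gm48226. Nearest to Mettl21c were Vasp, Hsph1 and the muscle enolase gene Eno3, at 0.023, 0.025 and 0.037. Nearest to Smyd1 were Gemin5, Tcf4 and Gphn, at 0.0058, 0.0059 and 0.0075; Smyd1 moved so little that many genes have nearly its pattern. These genes were picked for their values, so no test is given.

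The other seven-beta-strand protein methyltransferases on the list, not all of them lysine enzymes, were mostly low or fell slightly. Of 15 genes on this list 13 had a row, 5 were listed at 0 in every library, including the relatives Mettl21b and Vcpkmt, and 6 could be tested. None of the 6 was called higher and 3 were called lower, where 24.9% and 25.4% of all tested genes were. The median log2 fold change was -0.21. N6amt2, now Eef1akmt1, which methylates the elongation factor eEF1A, fell by 0.37 (limma adjusted p 5.2e-04), from 11.87 and 12.11 to 9.95 and 9.45 RPKM. Mettl22 fell by 0.19 (limma adjusted p 0.0026). Fam173a, a mitochondrial methyltransferase gene now named Antkmt, fell by 0.24 (limma adjusted p 0.011), a call lost without Het replicate 1 (0.074) and with values as deposited (0.053). Exons of Fam173a overlap those of Ccdc78 and AC134908.4.

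SET-domain enzymes outside the Smyd family were compared in the same way. Of 30 genes 25 were tested, of which 7 were called lower, 3 higher and 15 neither. Of all tested genes 25.4% were called lower and 24.9% higher. The median log2 fold change of the list was -0.07. The count of lower genes was 4 with values as deposited, 4 without Het replicate 2 and 3 without Nf1-KO replicate 2. Setd8, which methylates histone H4, fell from 41.22 and 41.77 to 21.53 and 21.74 RPKM, a log2 fold change of -1.0 ± 0.026 (SE; limma adjusted p 1.5e-06). Setd7, which methylates histone H3 and other proteins, fell from 52.39 and 51.18 to 30.94 and 30.87 RPKM, a log2 fold change of -0.82 (limma adjusted p 2.7e-06). The fall of Smyd2, -0.86, lies between these values. Ezh1, a Polycomb methyltransferase, rose by 0.30 (limma adjusted p 0.0015). An exon of Setd7 overlaps one of the opposite-strand gene 5031434O11Rik.

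Protein arginine methyltransferases use the same methyl donor. The 10 listed genes include Wdr77, which encodes a partner of PRMT5 and not a methyltransferase. Of the 10, 9 were tested, with 3 called lower and 2 higher (Prmt10 and Wdr77), where 25.4% and 24.9% of all tested genes were. The median log2 fold change was -0.03. The 2 higher calls numbered 1 without Het replicate 2, Nf1-KO replicate 1 or Nf1-KO replicate 2, and 0 without Het replicate 1 or with no filter on low values. Carm1, a coactivator in muscle gene expression, fell from 19.99 and 20.02 to 13.62 and 12.88 RPKM, a log2 fold change of -0.65 (limma adjusted p 3.5e-05). Exons of Carm1 overlap Yipf2, and those of Prmt3 overlap Gm26856 and Gm44822. The log2 fold changes of Prmt3 and Prmt5 were -0.30 and -0.15 (limma adjusted p 0.016 and 0.019). Prmt3 lost its call without Het replicate 1 or Nf1-KO replicate 1 (0.073 to 0.077), and Prmt5 without Het replicate 1, Het replicate 2 or Nf1-KO replicate 2 (0.072 to 0.12) and with values as deposited (0.19).

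Known substrates and partners of the members were mixed. Of 15 genes 14 were tested, with 8 called lower and 2 higher, where 25.4% and 24.9% of all tested genes were. The median log2 fold change was -0.09. Among the lower genes, the calls of Hspa8, Naca and Ttn depended on the setting. The 2 higher genes became 1, with Rb1 lost, without Het replicate 2, Nf1-KO replicate 1 or Nf1-KO replicate 2 and with no filter on low values. For SMYD1 and SMYD2, the myosin chaperone gene Unc45b fell by 0.31 (limma adjusted p 2.4e-04), from 60.78 and 58.12 to 50.75 and 51.11 RPKM. Hsp90aa1 fell by 0.34 (limma adjusted p 6.8e-04), while Hsp90ab1 had a log2 fold change of -0.05 (0.056), positive with values as deposited. Titin (Ttn) was 122.91 and 129.34 RPKM in Het and 96.64 and 76.21 RPKM in Nf1-KO, a log2 fold change of -0.64 (limma adjusted p 0.0026). The Ttn call was lost with limma's robust variance (0.066). Naca, whose muscle form binds SMYD1, overlapped between the groups in RPKM; its log2 fold change was -0.10 (limma adjusted p 0.033). Naca lost its call without Het replicate 2, Nf1-KO replicate 1 or Nf1-KO replicate 2 (0.060 to 0.17) and with values as deposited (0.80).

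For the METTL21 enzymes, Vcp fell by 0.24 (limma adjusted p 2.0e-04), from 121.35 and 121.86 to 110.55 and 108.72 RPKM, and the alanyl-tRNA synthetase gene Aars fell by 0.23 (6.0e-04). The Hsp70 genes did not move together. Hspa5 fell by 0.34 (limma adjusted p 1.5e-04), and Hspa1a and Hspa1b did not pass, with log2 fold changes of 0.05 and 0.09. Hspa8 had a log2 fold change of -0.08 (limma adjusted p 0.0099), which was 0.012 and not past the threshold with values as deposited. Its call was also lost without either Nf1-KO library (0.054 to 0.072). Of the SMYD3 substrates, Map3k2 did not pass (0.09) and Flt1, a vascular growth factor receptor, rose by 0.37 (limma adjusted p 5.1e-04). Of the SMYD2 substrates outside chaperones, the cell cycle brake Rb1 rose by 0.17 (limma adjusted p 0.029), a call lost without Het replicate 2, Nf1-KO replicate 1 or Nf1-KO replicate 2 (0.065 to 0.13). Trp53 was under the filter. Exons of Vcp, Aars, Ttn, Unc45b, Hspa8, Hspa1a and Rb1 overlap those of other annotated genes.

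Genes that supply or use S-adenosylmethionine held the largest differences among these lists. Of 17 genes 13 were tested, with 5 called higher and 5 lower, where 24.9% and 25.4% of all tested genes were. The median log2 fold change was 0.05. The 5 lower genes numbered 3 with values as deposited, without Het replicate 2 and without Nf1-KO replicate 2, and the 5 higher numbered 3 when 1 RPKM was required in every library. Gnmt, which uses the donor to methylate glycine, rose from 0.72 and 0.37 to 6.72 and 6.88 RPKM, a log2 fold change of 2.29 ± 0.11 (SE; limma adjusted p 1.4e-05). Gamt, which uses it in the last step of creatine synthesis, fell from 8.27 and 7.76 to 1.93 and 1.77 RPKM, a log2 fold change of -1.73 (limma adjusted p 2.9e-06). Mtr, the methionine synthase gene, fell by 0.74 (limma adjusted p 7.3e-05).

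Transcription factors known upstream of Smyd1 or of muscle genes were divided. Of 8 genes 7 were tested, with 1 called higher and 3 lower, where 24.9% and 25.4% of all tested genes were. The median log2 fold change was -0.03. The 1 higher gene became 3 with values as deposited and 2 without Nf1-KO replicate 2. Srf fell by 0.34 (limma adjusted p 2.2e-04) and Myf6 by 0.27 (2.5e-04). Myog rose from 0.92 and 1.23 to 5.19 and 4.53 RPKM, a log2 fold change of 1.44 (limma adjusted p 5.5e-05).

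**Figure D5:**
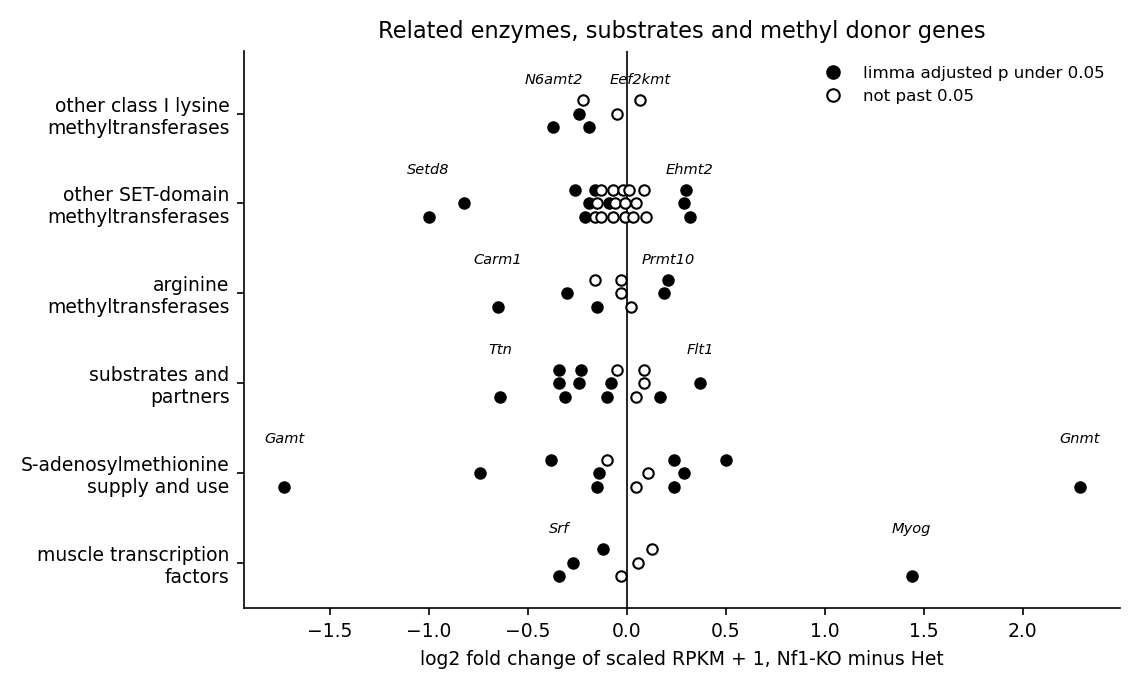
Log2 fold change of Nf1-KO over Het for every tested gene of the 6 related lists; filled points passed the limma threshold and open points did not, and the lowest and highest gene of each list is named (heights within a row only separate points). Gnmt at 2.29 and Gamt at -1.73 lie farthest from 0.

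Markers were read to check the tissue and to see what moved with these results. For the counts below, 24.9% of all tested genes were called higher and 25.4% lower. All 8 fibre markers were present, with 5 called lower and 3 higher, and their summed RPKM was 44717 to 44939 in Het and 37509 to 37959 in Nf1-KO. Of 8 immune markers 3 were tested and all 3 were higher (sum 9.04 to 9.30 against 28.3 to 28.4 RPKM, with Adgre1 listed at 0). Of 7 Schwann cell markers 6 were tested and all 6 were higher (15.2 to 15.7 against 33.9 to 35.5). Of 4 cardiac markers 2 were tested and both were higher (5.92 to 6.41 against 9.21 to 9.30, with Myl7 listed at 0). Endothelial markers had 2 higher and 2 lower of 6 tested (78.5 to 79.0 against 83.3 to 84.5), and fibroblast and tendon markers 3 higher and 1 lower of 4 tested (62.5 to 64.8 against 73.8 to 74.1). Adipocyte markers had 1 higher of 2 tested (2.25 to 2.38 against 2.28 to 2.48) and satellite cell markers 1 higher of 3 tested (6.67 to 6.97 against 8.23 to 8.65). The 1 tested blood marker did not pass (sum 1.37 to 1.45 against 1.62 to 1.77, with Hbb-b1 listed at 0). The part of cell make-up in the results for Mettl21e, Mettl21c and Smyd2 was not tested, and in whole muscle fewer cells of a type and less RNA per cell cannot be told apart.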

How the data were processed

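RNA from 4 libraries (2 Het, 2 Nf1-KO) was read from the deposited files. Per the labels, the kit was Illumina TruSeq RNA v2; the submitters' processing notes list STAR 2.4.2a, DESeq2 and build mm9, with no role given. The authors deposited 1 RPKM value per gene; the header does not name this unit. It was read from the values: over 4554 genes of at least 5 RPKM, normalized count per RPKM rose with transcript length with a log-log slope of 0.95. Per the file headers, the authors' deposited table holds a signal value (mean normalized count), log2 fold changes, a test score and p-values, in the layout of DESeq2 output. The depth of each library and the counting program are not given in the sources used here. Multi-mapping and strand handling are not stated.

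Of 34682 rows, 33 named by a number were left out, and the highest-mean copy of each name was kept; each member had 1 row. Values were divided by library factors from trimmed log ratios, without weights (30% cut by ratio and 5% by abundance on each side; factors 0.968, 0.967, 1.03 and 1.03) and log2(RPKM + 1) was fitted with limma 3.58.1 in R 4.3.3, with a variance trend and no covariate. The fit was tested on simulated data. The named genes are the 8 members, every substrate, up to 3 called genes of at least 1 RPKM with the smallest p per other list, the 3 neighbours on each side, and the 3 nearest patterns. A further gene of the substrate list is not reported here and is left out of its counts. The members and lists were chosen with earlier results of these data known. Positions and overlaps are from GENCODE M21 (GRCm38) and promoter sequences from RefSeq (GRCm38.p6), which is not the listed build.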

Additional observations from a re-analysis of the deposited data

How the results depend on the processing

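The counts of members called, the named genes and the 6 related lists were recomputed under up to 14 settings: other pseudocounts, filters, scalings and variance models, a replicate block, each library left out, and the mean of all rows of a name. Marker lists, sums, shares, ratios and non-overlap counts were not recomputed. The 3 members called lower (Mettl21c, Smyd1, Smyd2) stayed called in each setting, except Smyd1 with values as deposited (-0.054, adjusted p 0.063). The count of members called higher was 0 and became 1, Smyd4, when 1 RPKM was required in every library (0.16, adjusted p 0.039), with values as deposited (0.21, 0.023) and in limma without a variance trend (0.15, 0.039). Leaving out each library in turn gave 0 members called higher and 3 called lower each time. Signs turned only near 0: Smyd3 was 0.020 with values as deposited and ran from -0.089 to 0.019 when 1 library was left out, positive without Het replicate 2 and, at 0.009, without Nf1-KO replicate 1. Hsp90ab1 and Hspa8 were 0.041 and 0.012 with values as deposited, and Hspa1b ran from -3.1e-04 without Het replicate 2 to 0.18 without Het replicate 1. The cause was not tested. Where 1 library was left out, the lone library of that group was assumed to vary like the other group. Mettl21e ran from 2.63 to 3.67, highest with a pseudocount of 0.1, since a smaller pseudocount spreads low values, and had no value when 1 RPKM was required in every library. With values as deposited 66.6% of called genes were higher, against 49.5%, and the median of all tested genes was 0.07.

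Same-numbered libraries did not deviate together (correlation -0.018 over genes), so the numbers give no pairing. With the replicate block 0 members were called higher and 3 lower, and Nf1 (-0.18, adjusted p 0.054) and Tpp2 (0.11, 0.066) lost their calls. Smyd3, Smyd4 and Smyd5 rest on mean normalized counts of 254, 310 and 333 in the authors' deposited table, the lowest among the members in that table.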
